A study of Homo sapiens with 32 samples.

Results

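The genes described here are a module of 35 genes of the integrated stress response and the unfolded protein response, chosen by symbol from a list. The rule used no measured value, but the members were chosen with earlier results of these data known. All 35 were found among the 61541 genes of the count table. They were divided by role into 12 regulators and effectors of the integrated stress response (the ISR branch), 13 genes of amino acid synthesis and transport (the amino acid branch) and 10 genes of the endoplasmic reticulum (the ER branch). Polyadenylated RNA had been sequenced from cultures of 2 germ cell cancer lines, TCam-2 (of seminoma origin) and NTera2 (of embryonal carcinoma origin). In each line the groups were cells given RANKL, cells given OPG (osteoprotegerin, a soluble decoy receptor of RANKL), cells labelled as given denosumab (an antibody against RANKL) and cells given vehicle (D-PBS), with 4 libraries a group and 32 in all. Treatment lasted 48 h in medium with serum. The treatment protocol in the labels gives RANKL and OPG at 1 µg/ml, names RANKL again and does not name denosumab, so the denosumab groups rest on the sample labels. Each line is a single established culture, and the 4 libraries of a group came from 4 independent experiments according to the labels and carried 4 passage numbers, 118, 120, 121 and 122 in TCam-2 and 27, 29, 30 and 31 in NTera2. According to the growth protocol in the labels, TCam-2 cells were kept in RPMI 1640 and NTera2 cells in DMEM, so line and medium cannot be told apart in any comparison of the lines. No genotype difference other than the lines themselves is given.

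Cells that lack amino acids, carry unfolded protein in the endoplasmic reticulum or meet other stresses phosphorylate the initiation factor eIF2, which lowers translation in general and raises translation of the transcription factor ATF4. ATF4, with partners of the C/EBP family, drives genes of amino acid uptake, of serine, asparagine and cysteine supply, and of feedback on the response itself. The endoplasmic reticulum has 3 stress sensors, encoded by ERN1 (IRE1), EIF2AK3 (PERK) and ATF6: IRE1 splices the mRNA of XBP1, PERK phosphorylates eIF2, and ATF6 is cut to release a transcription factor. XBP1 and ATF6 drive chaperones and the machinery that sends misfolded protein to degradation. Gene counts measure the amount of mRNA only, and neither the splicing of XBP1 nor the translation of ATF4 can be read from them.

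The libraries held from 10585247 to 20257935 counts in TCam-2 and from 11385500 to 30499538 in NTera2. The RNA integrity number (RIN) in the labels was 6.1 in TCam-2 RANKL replicate 2 and 3.7 in TCam-2 RANKL replicate 4. It was at least 9.2 in the other TCam-2 libraries and at least 8.3 in the NTera2 libraries that have one, and NTera2 vehicle replicate 1 has none. Markers of the lines went with the labels: SOX17 averaged 163 ± 26.4 CPM (counts scaled to a common library size) in TCam-2 vehicle libraries against 0.0344 ± 0.0406 in NTera2 vehicle libraries, and SOX2 averaged 2.53 ± 1.05 CPM in TCam-2 against 301 ± 35.5 in NTera2 (SD, n = 4 each). The leukocyte markers PTPRC and CD3E had no counts in the vehicle libraries of either line. In these bulk libraries, fewer cells of a state and less RNA per cell cannot be told apart.

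Some promoters of the module carry the short sequences through which these pathways are known to act, and 6 are shown so that the elements can be seen in place. The windows come from RefSeq (GRCh38.p14) and reach from 250 bases before to 50 after each listed start, and 30 of the 35 genes had a window (NUPR1, PSPH, SHMT2, ALDH1L2 and SLC7A11 were not listed). Each of 3 motifs was searched on both strands. The C/EBP-ATF response element (CARE, TGATGNAA) lay in a window of 6 of the 30 genes, CEBPG, CHAC1, ASNS, SLC3A2, SLC7A1 and HERPUD1, or 20%, against 4.46% of the 27305 genes of the table. The ER stress response element (ERSE, CCAAT and CCACG with any 9 bases between) lay in the windows of XBP1 and CALR, against 0.0916% of all genes. The second ER stress response element (ERSE-II, ATTGG and CCACG with any 1 base between) lay in the window of HERPUD1, against 0.0696% of all genes. Among the genes listed, a CARE was present in 2 of 11 of the ISR branch, 3 of 9 of the amino acid branch and 1 of 10 of the ER branch, and both kinds of ERSE lay in the ER branch. No overlap between motifs occurred in these windows. A match describes these letters only. The 250 bases before the start are printed 5′ to 3′ on the strand of the gene, with the matched motif in capitals, which reads as the reverse complement where the match is on the other strand.
ASNS (chr7:97872409-97872658, minus strand; CARE): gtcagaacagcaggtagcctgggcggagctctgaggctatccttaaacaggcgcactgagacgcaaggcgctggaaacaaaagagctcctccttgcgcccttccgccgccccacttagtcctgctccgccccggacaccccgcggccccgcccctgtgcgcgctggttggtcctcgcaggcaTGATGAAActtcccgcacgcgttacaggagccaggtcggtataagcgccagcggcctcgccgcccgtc
CEBPG (chr19:33373863-33374112, plus strand; CARE): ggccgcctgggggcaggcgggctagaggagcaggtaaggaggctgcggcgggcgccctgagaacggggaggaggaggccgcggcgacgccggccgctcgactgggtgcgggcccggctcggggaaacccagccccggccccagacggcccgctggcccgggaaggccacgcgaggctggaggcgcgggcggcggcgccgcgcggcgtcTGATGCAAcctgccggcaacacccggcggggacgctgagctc
CHAC1 (chr15:40953221-40953470, plus strand; CARE): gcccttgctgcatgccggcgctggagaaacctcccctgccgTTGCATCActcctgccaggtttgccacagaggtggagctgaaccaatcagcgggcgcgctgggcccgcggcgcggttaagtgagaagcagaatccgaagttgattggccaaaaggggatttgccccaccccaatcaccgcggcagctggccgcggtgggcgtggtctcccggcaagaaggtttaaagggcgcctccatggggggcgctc
HERPUD1 (chr16:56931892-56932141, plus strand; CARE and ERSE-II): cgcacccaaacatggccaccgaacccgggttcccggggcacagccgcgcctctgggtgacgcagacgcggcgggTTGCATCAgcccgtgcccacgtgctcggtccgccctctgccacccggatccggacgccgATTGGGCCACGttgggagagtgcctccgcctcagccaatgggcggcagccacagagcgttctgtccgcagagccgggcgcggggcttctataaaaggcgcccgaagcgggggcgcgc
XBP1 (chr22:28800570-28800819, minus strand; ERSE): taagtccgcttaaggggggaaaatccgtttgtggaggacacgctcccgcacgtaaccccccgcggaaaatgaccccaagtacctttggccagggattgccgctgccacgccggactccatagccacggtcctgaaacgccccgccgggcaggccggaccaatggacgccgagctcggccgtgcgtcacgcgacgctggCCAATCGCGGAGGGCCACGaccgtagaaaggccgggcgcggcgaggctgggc
CALR (chr19:12938359-12938608, plus strand; ERSE): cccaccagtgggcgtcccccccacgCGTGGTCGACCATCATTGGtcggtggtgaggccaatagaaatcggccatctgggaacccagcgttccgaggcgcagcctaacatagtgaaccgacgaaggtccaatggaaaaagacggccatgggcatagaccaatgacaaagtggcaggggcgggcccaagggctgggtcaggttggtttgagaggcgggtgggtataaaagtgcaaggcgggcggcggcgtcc
The CARE of ASNS lies 68 to 61 bases before the start and that of CEBPG 42 to 35 bases before it, whereas those of CHAC1 (209 to 202 bases) and HERPUD1 (176 to 169 bases) lie farther out and on the opposite strand. HERPUD1 was the only gene of the 30 with matches to both a CARE and an ERSE-II, the ERSE-II lying 117 to 107 bases before the start. The ERSE lies 52 to 34 bases before the start of XBP1 and 225 to 207 bases before that of CALR. The CARE of SLC3A2 and SLC7A1 lies after the start and is not printed.

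The first comparison asked how the module stood in TCam-2 against NTera2 cells without added protein. Most genes of all branches were higher in TCam-2: of the 35 genes, 28 were higher and 6 lower at an adjusted p under 0.05 (edgeR quasi-likelihood F test, 4 against 4 vehicle libraries, Benjamini-Hochberg over 16816 genes). The background was wide, since 76.2% of all genes tested were called, 37.4% higher and 38.8% lower. The share called higher was therefore 80% of the module and 37.4% of all genes. The median log2 fold change, TCam-2 over NTera2, was 0.79 over the module and -0.01 over all genes tested. The 6 genes lower in TCam-2 were SESN2, VLDLR, PHGDH, PSAT1, ATF6 and PDIA4, and SLC7A1 was not called. In the 24 treated libraries, which the vehicle comparison did not use, 29 genes were higher and 6 lower, SLC7A1 included among the higher, where 84.6% of all genes were called (41.2% higher and 43.3% lower). The treated libraries of a line carry the same 4 passage numbers as its vehicle libraries, and this fit had no passage term. They are therefore neither fully independent replicates nor an independent repeat of the vehicle comparison. Across all libraries, 23 of the 35 genes had their 16 TCam-2 values above their 16 NTera2 values and 5 had them below, together 80% of the module, where the same held for 23.1% and 24.2% of all genes and 47.3% together.

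**Figure D1:**
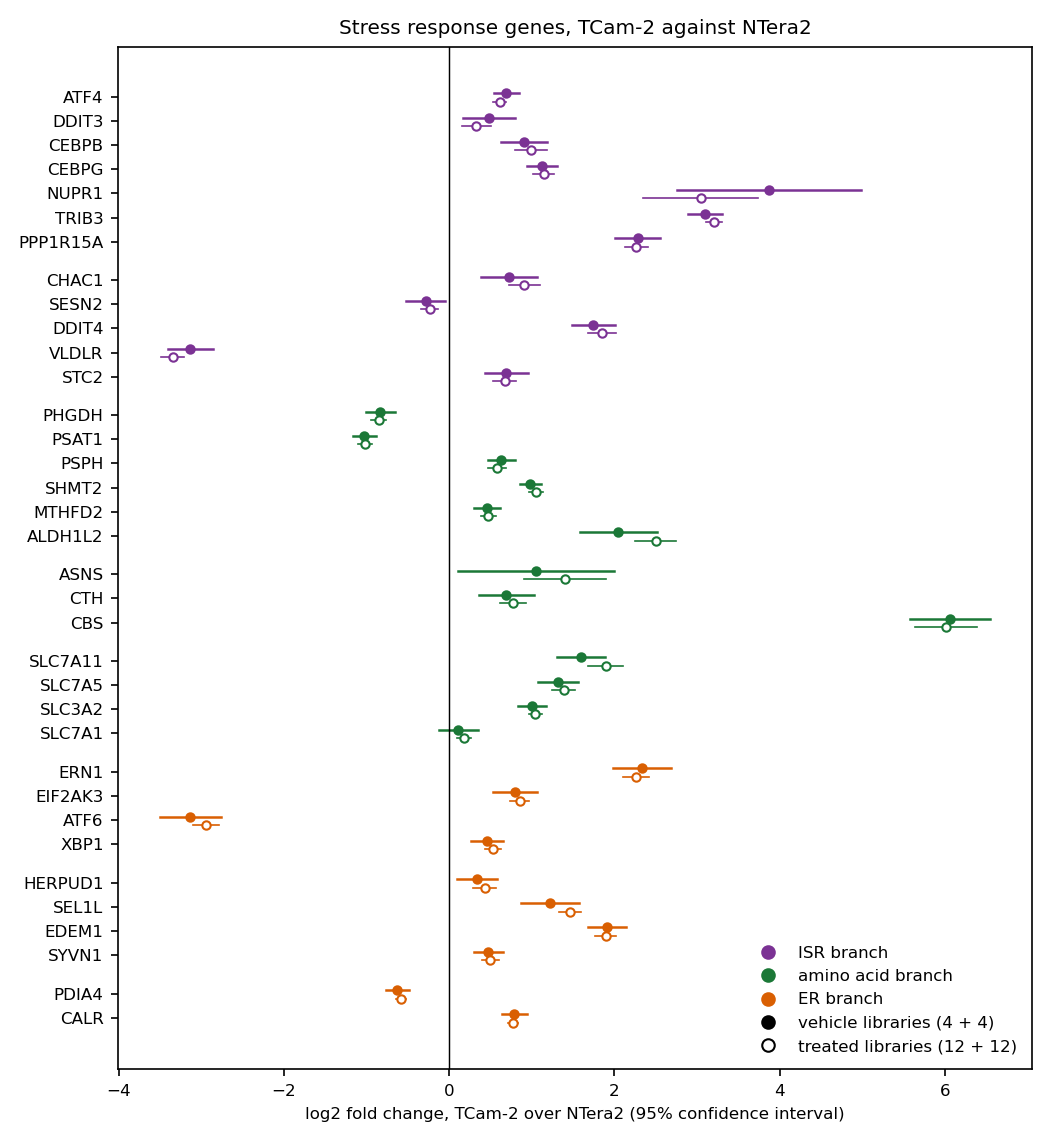
The log2 fold change of each of the 35 genes, TCam-2 over NTera2, with its 95% confidence interval, in vehicle libraries (filled, 4 against 4) and in treated libraries (open, 12 against 12), with colours for the branches. The treated libraries of a line carry the same 4 passage numbers as its vehicle libraries. Most genes sit right of 0, CBS lies farthest right at 6.07, and VLDLR and ATF6 lie farthest left at -3.13.

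All 7 regulators of the ISR branch were higher in TCam-2. ATF4 mRNA (ENSG00000128272, hg38 chromosome 22, 39519695 to 39522683), which encodes the central transcription factor, stood at 468, 547, 542 and 588 CPM in the TCam-2 vehicle libraries, against 314, 333, 336 and 344 CPM in the NTera2 vehicle libraries. The groups did not overlap, with a log2 fold change of 0.69 and an SE of 0.07 (adjusted p = 1.96e-07), and values after ± are SE for log2 fold changes and SD for CPM throughout. TRIB3 (ENSG00000101255, chromosome 20, 362835 to 397559), a pseudokinase that is an ATF4 target and restrains ATF4, stood at 197, 244, 241 and 253 CPM in TCam-2, against 28.6, 27.9, 24.3 and 28.3 CPM in NTera2. Its fold was 8.56 (log2 3.10 ± 0.10, adjusted p = 4.03e-14), the smallest adjusted p of the module. PPP1R15A (GADD34), the phosphatase subunit that removes the phosphate from eIF2, stood at 61.5, 75.1, 77.4 and 94.4 CPM in TCam-2, against 13.4, 17.5, 16.6 and 16.1 CPM in NTera2, a log2 fold change of 2.28 ± 0.13 (adjusted p = 8.15e-11).

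CEBPG, a dimer partner of ATF4, averaged 90.8 ± 6.66 CPM in TCam-2 and 41.5 ± 2.06 CPM in NTera2 (SD, n = 4 each), and CEBPB, another C/EBP factor, averaged 20.5 ± 1.31 CPM in TCam-2 and 10.9 ± 1.54 CPM in NTera2. DDIT3 (CHOP), a transcription factor induced late in the response, averaged 45.7 ± 9.39 CPM in TCam-2 and 32.7 ± 4.98 CPM in NTera2, a smaller difference (log2 fold change 0.48 ± 0.15, adjusted p = 0.0071). Its ranges overlapped, and 27.2% of its exon bases are shared with MARS1 on the opposite strand, so its counts are uncertain because the strand setting of the counting is not given in the sources used here. NUPR1, a small stress-induced nuclear protein, was the least expressed gene of the module. It averaged 1.95 ± 0.35 CPM in TCam-2 and 0.12 ± 0.12 CPM in NTera2, where vehicle replicate 2 had no counts (log2 fold change 3.88 ± 0.52, adjusted p = 4.2e-06).

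The 5 effectors of the ISR branch were split. DDIT4 (REDD1), an inhibitor of mTORC1, was higher in TCam-2 at 66.1 ± 5.42 CPM, against 19.6 ± 3.39 CPM in NTera2 (log2 fold change 1.75 ± 0.12). STC2, a secreted glycoprotein, averaged 69.7 ± 13.1 CPM in TCam-2 and 43.1 ± 3.11 CPM in NTera2, and CHAC1, an enzyme that degrades glutathione, averaged 25.5 ± 3.72 CPM in TCam-2 and 15.3 ± 3.42 CPM in NTera2. SESN2, which senses leucine and inhibits mTORC1, was slightly lower at 58.3 ± 9.48 CPM in TCam-2, against 70.8 ± 5.3 CPM in NTera2 (log2 fold change -0.28 ± 0.11, adjusted p = 0.0316), with overlapping libraries. Its call was lost without TCam-2 vehicle replicate 1 (adjusted p = 0.0537), NTera2 vehicle replicate 2 (adjusted p = 0.0768) or NTera2 vehicle replicate 4 (adjusted p = 0.0629). VLDLR (ENSG00000147852, chromosome 9, 2621182 to 2656103), a lipoprotein receptor that ATF4 also induces, went far the other way. It stood at 7.11, 6.64, 7.12 and 4.94 CPM in TCam-2, against 61.7, 55.2, 54.9 and 53.3 CPM in NTera2, which puts TCam-2 at 0.114 of NTera2 (log2 fold change -3.13 ± 0.13, adjusted p = 1.45e-12).

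In the amino acid branch, the enzymes of serine synthesis and of the one-carbon cycle did not move as one. PHGDH (ENSG00000092621, chromosome 1, 119648411 to 119744190), the first enzyme of serine synthesis, stood at 299, 391, 378 and 388 CPM in TCam-2, against 626, 673, 625 and 668 CPM in NTera2. PSAT1 (ENSG00000135069, chromosome 9, 78297125 to 78329454), the second enzyme, stood at 146, 154, 151 and 154 CPM in TCam-2, against 321, 290, 310 and 310 CPM in NTera2. Both were lower in TCam-2 with no overlap over all 32 libraries, at log2 fold changes of -0.83 ± 0.08 (adjusted p = 9.81e-08) and -1.03 ± 0.06 (adjusted p = 3.23e-10). PSPH, the last enzyme of the same route, was higher at 90.4 ± 1.86 CPM in TCam-2, against 58.3 ± 3.47 CPM in NTera2.

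The 3 genes of the mitochondrial folate cycle, which passes on the carbon of serine, were all higher in TCam-2. SHMT2, which takes the carbon from serine, stood at 380, 390, 423 and 413 CPM in TCam-2, against 199, 204, 198 and 210 CPM in NTera2 (log2 fold change 0.98 ± 0.06). MTHFD2 averaged 210 ± 15.6 CPM in TCam-2 and 152 ± 6.6 CPM in NTera2 (log2 0.46 ± 0.07). ALDH1L2 (ENSG00000136010, chromosome 12, 105019784 to 105107643), which oxidises formyl-folate, was the scarcest of them and differed most, at 7.97, 8.41, 13.1 and 8.21 CPM in TCam-2, against 2.66, 1.9, 2.29 and 2.17 CPM in NTera2 (log2 2.05 ± 0.22, adjusted p = 2.34e-07).

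**Figure D2:**
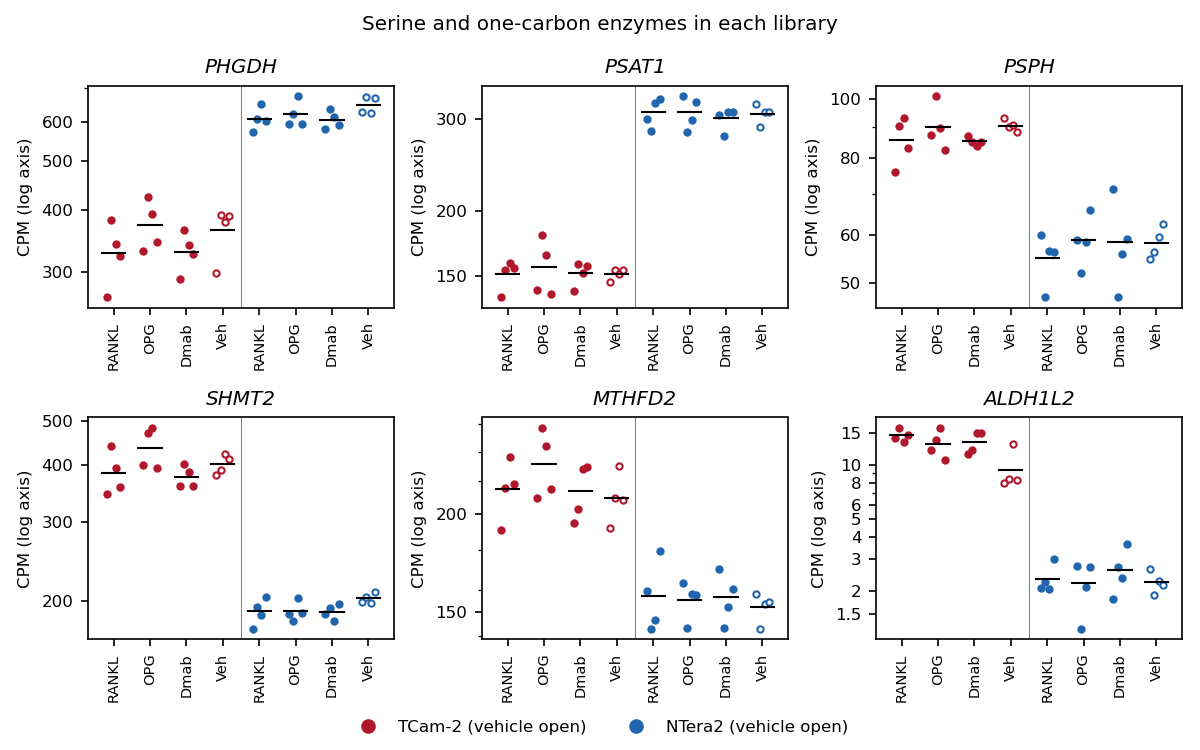
CPM (log axes) of the 6 serine and one-carbon genes in each library, with TCam-2 groups left and NTera2 groups right of the grey line, open points for vehicle libraries and bars for the mean of 4. PHGDH and PSAT1 sit lower in TCam-2 in every group, and PSPH, SHMT2, MTHFD2 and ALDH1L2 sit higher.

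Among the other enzymes of the branch, CBS (ENSG00000160200, chromosome 21, 43053191 to 43076943), which opens the transsulfuration route from homocysteine to cysteine, had the largest fold of the module. It stood at 30.9, 38.1, 34.1 and 46.2 CPM in TCam-2, against 0.706, 0.254, 0.711 and 0.528 CPM in NTera2, a fold of 67.1 (log2 6.07 ± 0.23, adjusted p = 4.4e-13). CBS has a near-identical copy in some assemblies, CBSL, which had no row in the table, so the split of reads between them is uncertain. CTH, the next enzyme of the route, was detected in each line, at 16.2 ± 3.42 CPM in TCam-2 and 9.98 ± 0.99 CPM in NTera2 (log2 0.69 ± 0.16, adjusted p = 0.000757). ASNS (ENSG00000070669, chromosome 7, 97851677 to 97872408), asparagine synthetase, had very few counts in both lines, at 1.8, 4.11, 1.57 and 1.09 CPM in TCam-2 and 1.19, 0.952, 0.395 and 1.41 CPM in NTera2. An overlapping gene on the same strand, ENSG00000284707, shares 44.6% of its exon bases in GENCODE 29, so the count of ASNS is uncertain. Over all libraries of a line that gene had 12 counts in TCam-2 and 239 in NTera2, against 492 and 222 for ASNS, the opposite direction. The call of ASNS (log2 1.06 ± 0.45, adjusted p = 0.0411) was lost with DESeq2 (adjusted p = 0.0733) and with a replicate block (adjusted p = 0.0562). That block goes by replicate number, which does not pair the lines. The call was also lost without TCam-2 vehicle replicate 1 (adjusted p = 0.0513) or 2 (adjusted p = 0.258, log2 0.51), and without NTera2 vehicle replicate 1 (adjusted p = 0.0588), 2 (adjusted p = 0.088) or 3 (adjusted p = 0.114).

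Of the 4 transporters, 3 were higher in TCam-2. SLC7A5 (LAT1), which carries large neutral amino acids such as leucine, averaged 421 ± 76.7 CPM in TCam-2 and 169 ± 18.1 CPM in NTera2 (log2 1.31 ± 0.11), and its partner chain SLC3A2 averaged 451 ± 48.0 CPM in TCam-2 and 224 ± 15.3 CPM in NTera2 (log2 1.00 ± 0.08). SLC7A11 (xCT), the cystine importer that shares that partner, averaged 21.8 ± 1.67 CPM in TCam-2 and 7.18 ± 0.95 CPM in NTera2 (log2 1.59 ± 0.14). The arginine and lysine transporter SLC7A1 averaged 83.2 ± 14.5 CPM in TCam-2 and 76.7 ± 4.89 CPM in NTera2. Its log2 difference had a 95% interval from -0.13 to 0.35 (adjusted p = 0.367).

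In the ER branch, the 3 sensors did not differ alike. ERN1 (ENSG00000178607, chromosome 17, 64039080 to 64130125) stood at 23.1, 24.3, 25.8 and 18.5 CPM in TCam-2, against 4.13, 5.9, 4.11 and 3.99 CPM in NTera2 (log2 2.33 ± 0.17, adjusted p = 1.7e-09). EIF2AK3 averaged 43.5 ± 7.32 CPM in TCam-2 and 25.0 ± 2.15 CPM in NTera2 (log2 0.80 ± 0.13). ATF6 (ENSG00000118217, chromosome 1, 161766298 to 161977574) was lower in TCam-2 at 6.33, 4.39, 3.21 and 3.34 CPM, against 40.6, 37.5, 37.7 and 34.96 CPM in NTera2. That is 0.114 of the NTera2 level (log2 -3.13 ± 0.18, adjusted p = 7.3e-11), with no overlap over all 32 libraries. XBP1, the transcription factor downstream of IRE1, averaged 76.9 ± 6.38 CPM in TCam-2 and 55.8 ± 3.48 CPM in NTera2 (log2 0.46 ± 0.09, adjusted p = 0.000187).

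All 4 genes of ER-associated degradation were higher in TCam-2. EDEM1, which marks misfolded glycoproteins for removal, averaged 71.2 ± 9.04 CPM in TCam-2 and 18.9 ± 1.54 CPM in NTera2 (log2 1.91 ± 0.11, adjusted p = 8.6e-11). SEL1L, the adaptor of the membrane ligase, averaged 45.0 ± 12.2 CPM in TCam-2 and 19.2 ± 2.2 CPM in NTera2 (log2 1.22 ± 0.16). SYVN1, the ligase itself, differed less (log2 0.48 ± 0.08). It shares 7.24% of its exon bases with FAU on the same strand and 6.48% with MRPL49 on the opposite strand. HERPUD1, a membrane component of the same machinery, had the smallest difference of the branch (log2 0.34 ± 0.12, adjusted p = 0.0141). This call was lost with no low-count filter (adjusted p = 0.0538), without TCam-2 vehicle replicate 1 (adjusted p = 0.0682) and without NTera2 vehicle replicate 3 (adjusted p = 0.0636). Of the 2 chaperones, CALR, a lectin chaperone that binds calcium, averaged 1565 ± 139 CPM in TCam-2 and 904 ± 54.9 CPM in NTera2 (log2 0.79 ± 0.07), whereas PDIA4, a disulfide isomerase, was lower at 292 ± 15.9 CPM in TCam-2 against 450 ± 19.4 CPM in NTera2 (log2 -0.63 ± 0.06, adjusted p = 1.65e-07).

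**Figure D3:**
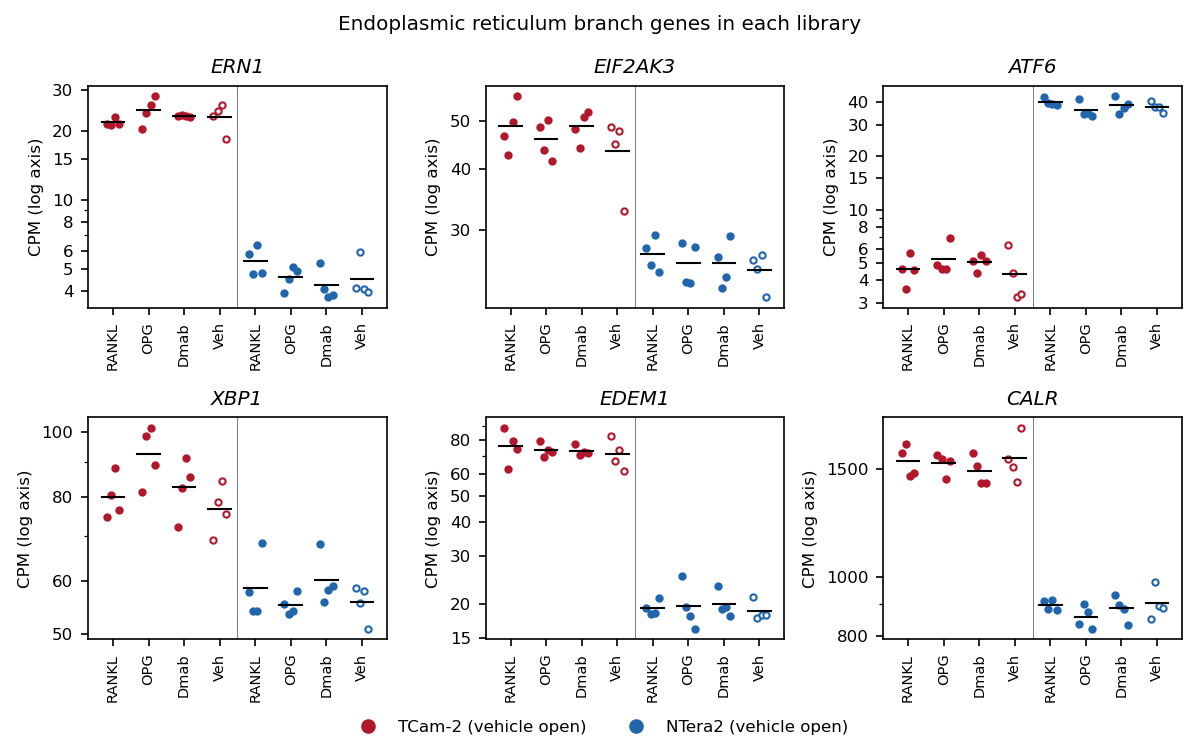
CPM (log axes) of 6 ER branch genes in each library, with TCam-2 groups left and NTera2 groups right of the grey line, open points for vehicle libraries and bars for the mean of 4. ERN1, EIF2AK3, XBP1, EDEM1 and CALR sit higher in TCam-2, and ATF6 sits lower in every TCam-2 library.

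Set side by side, the amino acid and the ER branch were both higher in TCam-2 on balance. In vehicle libraries the median log2 fold change was 0.98 over the 13 genes of the amino acid branch, of which 10 were higher and 2 lower. It was 0.63 over the 10 genes of the ER branch, of which 8 were higher and 2 lower, and 0.82 over the 12 genes of the ISR branch, of which 10 were higher and 2 lower. The mean log2 CPM of a branch, with each gene centred on its mean over 32 libraries, lay between 0.39 and 0.80 in the 16 TCam-2 libraries and between -0.90 and -0.44 in the 16 NTera2 libraries for the amino acid branch. For the ER branch it lay between 0.05 and 0.36 in TCam-2 and between -0.33 and -0.14 in NTera2. For the ISR branch it lay between 0.18 and 0.71 in TCam-2 and between -0.73 and -0.22 in NTera2. The ranges of the lines did not overlap in any of the 3 branches. These 3 values are descriptions of lists and were not tested against each other.

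Levels per length (CPM per kilobase of the length in the deposited table, mean of 16 libraries) spanned a wide range in both lines. CALR was highest at 548 CPM per kb in TCam-2 and 316 CPM per kb in NTera2, and NUPR1 was lowest at 0.287 CPM per kb in TCam-2 and 0.0277 CPM per kb in NTera2. ATF4 had rank 2 in TCam-2 at 196 CPM per kb and rank 4 in NTera2 at 125 CPM per kb. PSAT1 had rank 2 in NTera2 at 139 CPM per kb, beside 69.1 CPM per kb in TCam-2, where SLC3A2 (69.1) and TRIB3 (68.6) had nearly the same level. TRIB3 was at 7.52 CPM per kb in NTera2. Among the ER sensors, EIF2AK3 (2.26) and ERN1 (1.21) exceeded ATF6 (0.338) in TCam-2, and ATF6 (2.67) exceeded EIF2AK3 (1.25) and ERN1 (0.246) in NTera2, in CPM per kb. Such comparisons between genes depend on the length used. The deposited lengths of EIF2AK3, ERN1 and ATF6 were 20691, 19153 and 14263 bases, against 5434, 10864 and 7890 exon bases in GENCODE 29.

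Of 72 other genes of these pathways, 71 were tested in the vehicle libraries, and 41 were higher and 18 lower in TCam-2. That is 83.1% called, against 76.2% of all genes, so these counts are given as a description. Of the 16 further ER chaperones and folding enzymes, 12 were higher and 1 lower (81.2% called). SDF2L1, a lumenal cochaperone, had a log2 fold change of 3.75 ± 0.13, the lectin chaperone CANX 1.75 ± 0.06 and the oxidase ERO1A 1.43 ± 0.13. Of 12 cytosolic aminoacyl-tRNA synthetases, which charge tRNAs with amino acids, 7 were higher and 3 lower (83.3% called), with WARS1 at 2.56 ± 0.08, SARS1 at 0.96 ± 0.09 and EPRS1 at 0.69 ± 0.07 (log2). Of the 12 genes of the eIF2 kinases, eIF2 and its exchange factor eIF2B, 6 were higher and 2 lower, or 66.7% called, which is below the share of all genes. The 3 largest differences were those of EIF2B2 (1.29 ± 0.09), EIF2AK2 (1.02 ± 0.13) and EIF2S1 (0.95 ± 0.08). Of 7 tested regulators and secreted factors linked to ATF4, 5 were higher and 2 lower (100% called), with ADM2 at 2.19 ± 0.11, ATF5 at 2.11 ± 0.15 and JDP2 at 1.12 ± 0.14.

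Of 12 other genes of amino acid synthesis and transport, 4 were higher and 7 lower (91.7% called). The glutamine carrier SLC1A5 was lower (log2 -2.31 ± 0.07), as was the alanine transaminase GPT2 (-1.71 ± 0.10), and the neutral amino acid carrier SLC1A4 was higher (1.22 ± 0.13). Their median log2 fold change was -0.55, against 0.98 over the amino acid branch of the module. Of 12 other ER sensors, proteases and degradation genes, 7 were higher and 3 lower (83.3% called), with DERL1 at 1.51 ± 0.09 and SELENOS at 1.35 ± 0.09. DERL3, a further derlin, had 0 counts in the TCam-2 vehicle libraries and 276 in those of NTera2. Against a floor of 3 counts over the group, it was at least 81.0-fold lower in TCam-2.

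The second question was whether the branches answered to RANKL or to its inhibitors. No gene of the module was called in any of the 6 comparisons with vehicle, in which edgeR called 0% of all genes tested, and DESeq2 called none of the 35 either. NUPR1 was too low to be tested in NTera2, so 34 of the 35 were tested there. The 3 comparisons of a line share its vehicle libraries and are therefore given side by side. The main fits of the treatment, inhibitor and interaction comparisons had no passage term. The libraries of a line pair by passage, so an overlap of groups below also holds differences between passages. A replicate block by passage number was an alternative. Of the 39 branch medians in the treatment, inhibitor and interaction comparisons, 19 changed sign under at least 1 alternative, so the small medians below are values without a direction. The genes of a branch were measured in the same libraries. Counts of positive and negative values below are therefore descriptions and not separate observations.

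**Figure D4:**
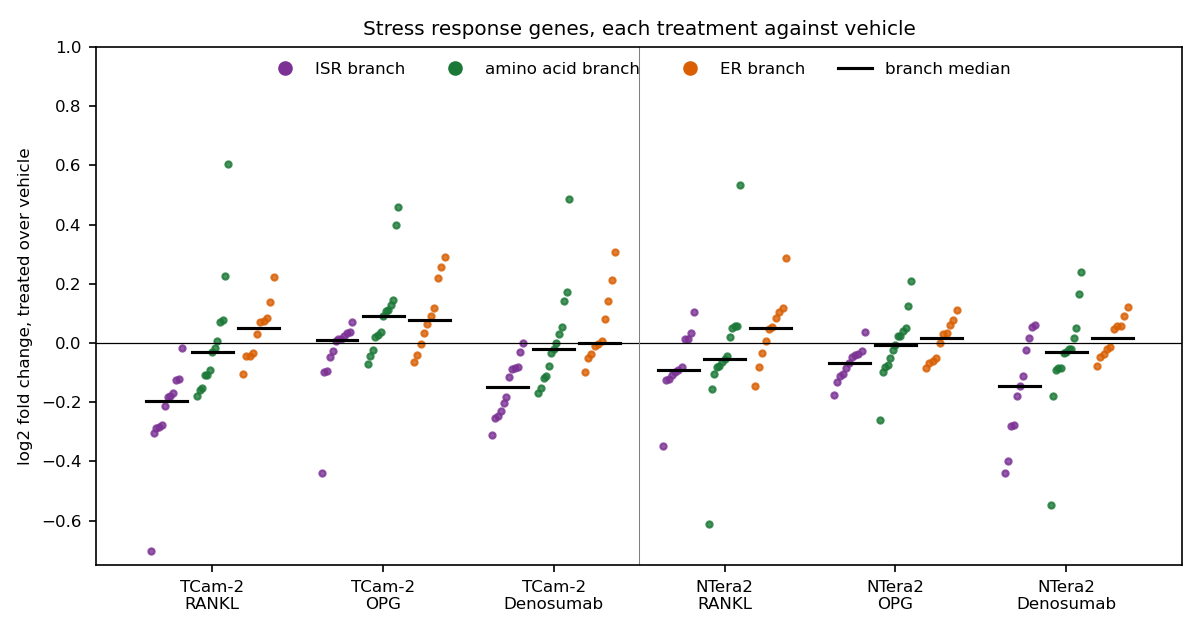
The log2 fold change of each gene against vehicle, a column of points for each branch within each of the 6 comparisons, with a bar for the branch median. In TCam-2 cells given RANKL the 12 ISR branch genes all lie below 0, with a median of -0.20, while the medians of the other branches lie near 0. No gene of the module was called in any of the 6 comparisons, and the genes of a branch come from the same libraries.

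In TCam-2 cells given RANKL, the log2 fold changes of the ISR branch ran from -0.70 to -0.02 with a median of -0.20, and 12 of 12 were negative. The amino acid branch had a median of -0.03 with 5 positive and 8 negative, the ER branch a median of 0.05 with 6 positive and 4 negative, and all genes tested a median of -0.01. At an unadjusted p under 0.05, 3 of 35 genes passed, or 8.57%, against 8.92% of all genes. These were ALDH1L2, PPP1R15A and ATF4. ATF4 stood at 417, 538, 496 and 480 CPM with RANKL, against 468, 547, 542 and 588 CPM with vehicle, and the groups overlapped (log2 -0.18 ± 0.08, adjusted p = 0.557). PPP1R15A stood at 53.1, 72.7, 65.2 and 68.6 CPM with RANKL, against 61.5, 75.1, 77.4 and 94.4 CPM with vehicle (log2 -0.28 ± 0.11, adjusted p = 0.557). For both ATF4 and PPP1R15A the RANKL library lay below the vehicle library at each passage, a pairing that this fit did not use.

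ALDH1L2 went the other way in TCam-2. It stood at 14.1, 16.1, 13.4 and 14.7 CPM with RANKL, 12.1, 13.7, 16.1 and 10.6 CPM with OPG and 11.5, 12.04, 15 and 15.1 CPM with denosumab, against 8.0, 8.4, 13.1 and 8.2 CPM with vehicle. Every RANKL library lay above every vehicle library, and vehicle replicate 3 lay within the ranges of OPG and denosumab. The log2 fold change was 0.60 ± 0.16 for RANKL (adjusted p = 0.557), 0.46 ± 0.16 for OPG (adjusted p = 0.488) and 0.49 ± 0.16 for denosumab (adjusted p = 0.731). All 3 values rest on the same 4 vehicle libraries.

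With the passage number as a replicate block, 10 of the 35 genes had an unadjusted p under 0.05 in TCam-2 RANKL against vehicle, 7 of them in the ISR branch, where 12% of all genes did, and the smallest adjusted p of the module was 0.335. Without the 2 RANKL libraries of low RIN, the ISR branch median was -0.30 and 12 of 12 were negative. Without RANKL replicate 2 alone the median was -0.32. Without RANKL replicate 1 it was -0.13, with 11 of 12 negative, which moved it by over 1.5 times.

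With OPG, the ISR branch of TCam-2 had a median of 0.01 with 7 positive and 5 negative, the amino acid branch 0.09 with 10 positive and 3 negative, and the ER branch 0.08 with 7 positive and 3 negative. SLC7A11 (23.9, 32.1, 26.8 and 32.5 CPM with OPG, against 22.7, 20.8, 23.6 and 19.9 CPM with vehicle) had a log2 fold change of 0.40 ± 0.14 (adjusted p = 0.488). XBP1 (81.5, 98.7, 101 and 89.2 CPM with OPG, against 69.1, 78.6, 84.4 and 75.5 CPM with vehicle) had one of 0.26 ± 0.09 (adjusted p = 0.488). OPG libraries of SLC7A11 all lay above the vehicle libraries, and those of XBP1 overlapped them. At each passage, however, the OPG library of XBP1 lay above its vehicle library. These and ALDH1L2 were the 3 genes at an unadjusted p under 0.05, 8.57% of the module against 8.68% of all genes. The replicate block gave 4 such genes, where 10.8% of all genes did.

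With denosumab, the ISR branch of TCam-2 had a median of -0.15 with 12 of 12 negative, the amino acid branch -0.02 with 5 positive and 8 negative, and the ER branch 0.00 with 5 positive and 5 negative. Without vehicle replicate 2 the ISR branch median was -0.07, with 10 of 12 negative. Without denosumab replicate 4 it was -0.09, with 11 of 12 negative. ALDH1L2, SEL1L (log2 0.31 ± 0.14) and ATF4 (log2 -0.18 ± 0.08) had an unadjusted p under 0.05, each with an adjusted p of 0.731, where 6.56% of all genes did. SEL1L stood at 59.0, 49.6, 56.1 and 61.5 CPM with denosumab, against 58.8, 39.5, 50.5 and 31.1 CPM with vehicle, so the groups overlapped. Under the replicate block 8 genes passed an unadjusted p of 0.05, where 9.23% of all genes did, and the smallest adjusted p was 0.466.

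In NTera2, the ISR branch medians were below 0 with each agent, and the ER branch medians with OPG and denosumab changed sign when single libraries were left out. With RANKL the median was -0.09 over the 11 tested ISR genes, -0.05 over the amino acid branch and 0.05 over the ER branch. CHAC1 was the 1 gene at an unadjusted p under 0.05, which 10.3% of all genes reached, at 10.9, 11.3, 10.1 and 15.8 CPM with RANKL, against 16.8, 13.6, 11.5 and 19.2 CPM with vehicle (log2 -0.35 ± 0.16, adjusted p = 0.464). SESN2 (log2 -0.12 ± 0.07, adjusted p = 0.536) and SLC7A5 (-0.15 ± 0.09, adjusted p = 0.537) came next. With OPG the medians were -0.07, -0.01 and 0.02 over the ISR, amino acid and ER branches. No gene of the module reached an unadjusted p under 0.05, against 1.68% of all genes, and the 3 smallest p belonged to TRIB3 (log2 -0.17 ± 0.09), PDIA4 (-0.08 ± 0.05) and SLC3A2 (-0.10 ± 0.06), each with an adjusted p of 1.

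With denosumab, 4 of 34 genes in NTera2 had an unadjusted p under 0.05, all in the ISR branch, where 7.25% of all genes did. The medians were -0.15 over the ISR branch (3 positive and 8 negative), -0.03 over the amino acid branch and 0.02 over the ER branch. TRIB3 stood at 21.4, 22.3, 23.96 and 21.5 CPM with denosumab, against 28.6, 27.9, 24.3 and 28.3 CPM with vehicle. The groups did not overlap, but the gap to the lowest vehicle library was small (log2 -0.28 ± 0.09, adjusted p = 0.42). CEBPB stood at 5.71, 10.2, 7.66 and 8.45 CPM with denosumab, against 10.3, 10.9, 9.4 and 13.0 CPM with vehicle (log2 -0.44 ± 0.16, adjusted p = 0.5). CHAC1 was at 10.3, 11.9, 12.3 and 11.7 CPM with denosumab, beside the vehicle values above (log2 -0.40 ± 0.16, adjusted p = 0.558). With the replicate block, the counts at an unadjusted p under 0.05 in NTera2 were 5 with RANKL (16.3% of all genes), 3 with OPG (4.36% of all genes) and 7 with denosumab (11.7% of all genes), and the smallest adjusted p of the module was 0.15.

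Each inhibitor was also set against RANKL, and edgeR called no gene of the module and none of all genes tested in these 4 comparisons (0% of all genes tested). In TCam-2, OPG against RANKL gave 12 of 12 positive log2 fold changes in the ISR branch (median 0.19), 11 of 13 in the amino acid branch (0.11) and 6 of 10 in the ER branch (0.02). An unadjusted p under 0.05 was reached by 7 of the 35 genes, all positive, or 20%, where 5.14% of all genes did. The RANKL libraries behind these values are those of the comparison with vehicle. PPP1R15A stood at 68.6, 77.7, 84.2 and 82.3 CPM with OPG, against 53.1, 72.7, 65.2 and 68.6 CPM with RANKL (log2 0.28 ± 0.11). SHMT2 stood at 400, 470, 485 and 394 CPM with OPG, against 346, 440, 394 and 358 CPM with RANKL (log2 0.20 ± 0.08), and XBP1 had a log2 fold change of 0.23 ± 0.09. All 3 had an adjusted p of 0.887 in the fit without a passage term, and their groups overlapped. At each passage, however, the OPG library lay above the RANKL library for all 3.

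Under the replicate block 12 genes passed an unadjusted p of 0.05 in this comparison, where 7.29% of all genes did, and the smallest adjusted p was 0.27. Without the 2 RANKL libraries of low RIN the ISR branch median was 0.27. Denosumab against RANKL in TCam-2 gave medians of 0.06, 0.01 and 0.00 over the ISR, amino acid and ER branches, with no gene at an unadjusted p under 0.05 (0.933% of all genes). Without the 2 libraries of low RIN the ISR branch median was 0.16, with 12 of 12 positive, against 10 of 12 with them. Without RANKL replicate 1 or denosumab replicate 2 that median was -0.02 or -0.01, so its sign rests on single libraries. The replicate block gave 1 gene at an unadjusted p under 0.05, where 1.37% of all genes did. The 3 smallest p belonged to DDIT4 (log2 0.18 ± 0.14), NUPR1 (0.45 ± 0.36) and TRIB3 (0.08 ± 0.09), each with an adjusted p of 1. In NTera2, OPG against RANKL had SYVN1 as the 1 gene at an unadjusted p under 0.05 (log2 0.18 ± 0.09, adjusted p = 0.913; 5.01% of all genes), followed by CHAC1 (0.28 ± 0.16) and ATF6 (-0.15 ± 0.09). Denosumab against RANKL in NTera2 had TRIB3 (-0.19 ± 0.09, adjusted p = 1; 4.36% of all genes), followed by ERN1 (-0.36 ± 0.18) and CEBPB (-0.31 ± 0.16). With the replicate block the count was 5 for OPG (8.05% of all genes) and 3 for denosumab (6.29% of all genes).

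Whether a treatment acted differently in the 2 lines was tested as an interaction over 32 libraries, TCam-2 difference minus NTera2 difference. No gene of the module was called for RANKL, OPG or denosumab (0% of all genes). For RANKL, VLDLR was the 1 gene at an unadjusted p under 0.05 (log2 -0.36 ± 0.17, adjusted p = 0.944; 5.22% of all genes), and ALDH1L2 (0.59 ± 0.30) and SEL1L (0.34 ± 0.19) had wide intervals that included 0. For OPG, XBP1 (0.28 ± 0.12, adjusted p = 0.946), SHMT2 (0.22 ± 0.10) and SLC7A11 (0.50 ± 0.24) had an unadjusted p under 0.05, where 5.2% of all genes did. For denosumab none did (4.78% of all genes), with TRIB3 (0.24 ± 0.12), CEBPB (0.39 ± 0.23) and VLDLR (-0.27 ± 0.17) at the smallest p. With the replicate block, 4 genes had an unadjusted p under 0.05 for RANKL (6.78% of all genes), 4 for OPG (6.5% of all genes) and 5 for denosumab (6.64% of all genes).

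The third comparison asked how far the module varied between the 4 passages of a line, with treatment in the model. In TCam-2, 9 of the 35 genes differed between passages (edgeR F test over the 3 passage coefficients, adjusted p under 0.05), or 25.7%, where 1.73% of all 17042 genes did. They were 7 of 12 in the ISR branch (ATF4, DDIT3, TRIB3, CHAC1, SESN2, DDIT4 and STC2), 2 of 13 in the amino acid branch (PHGDH and SLC7A5) and 0 of 10 in the ER branch. In the ER branch 4 genes had an unadjusted p under 0.05, where 14.1% of all genes did, and the smallest adjusted p was 0.0607. Of the 9 genes, 8 had their lowest mean at passage 118 and DDIT4 at passage 122. The highest mean was at passage 120 in 7 of them.

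SLC7A5 had the smallest p and averaged 343 CPM at passage 118 and 465 CPM at passage 122, 1.36 times as much (adjusted p = 8.67e-05). Passage 118 was the lowest of the 4 passages in each of the 4 treatments for SLC7A5, PHGDH, STC2, DDIT3 and ATF4. PHGDH averaged 297 CPM at passage 118 and 390 CPM at passage 120, and the highest mean was 1.31 times the lowest (adjusted p = 0.00028). STC2 averaged 52.7 CPM at passage 118 and 77.7 CPM at passage 120, a ratio of 1.47 (adjusted p = 0.000727). DDIT3 averaged 31.6 CPM at passage 118 and 50.1 CPM at passage 121, a ratio of 1.58 (adjusted p = 0.0018), the largest of the 9. DDIT4 averaged 54.0 CPM at passage 122 and 76.3 CPM at passage 120, a ratio of 1.41 (adjusted p = 0.00716). For ATF4 the means were 456 CPM at passage 118 and 550 CPM at passage 120, a ratio of 1.21 (adjusted p = 0.00768), a gene added here after its values were seen.

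**Figure D5:**
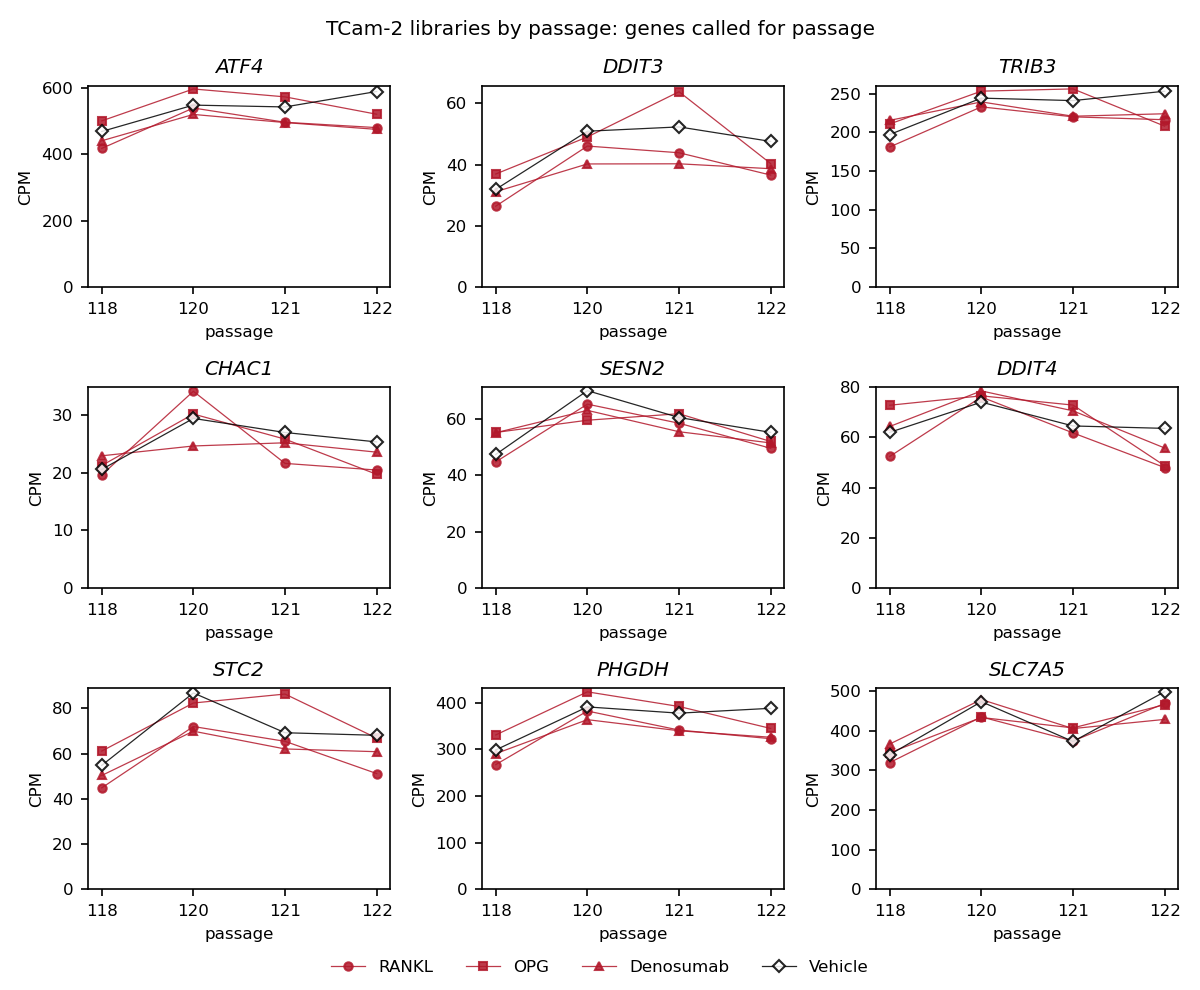
CPM of the 9 genes called for passage in TCam-2, with the 4 passages along each axis and a line of points for each treatment (vehicle open and black). In most panels the passage 118 points are lowest, as for SLC7A5 with a mean of 343 CPM there and 465 CPM at passage 122.

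Passages shared no other label, and what else differed between the experiments cannot be told apart from passage. Mean total counts were 14587037 at passage 118, 13354374 at passage 120, 16268646 at passage 121 and 16733096 at passage 122. The 2 low-RIN libraries lie at passages 120 and 122, and without them 4 genes were called (2 in the ISR branch), or 11.4%, where 0.812% of all genes were. The count was 5 (14.3%) without RANKL replicate 1, where 0.681% of all genes were called, and 5 without vehicle replicate 1, where 0.653% were. It was 16 (45.7%) without vehicle replicate 4, where 4.52% of all genes were called. In these fits the count of the module moved in the same direction as the calls over all genes. This did not hold in every fit. Without denosumab replicate 1 the count was 10 (28.6%), where 1.28% of all genes were called.

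In NTera2 passages, 5 of the 34 tested genes were called, or 14.7%, where 7.98% of all 17766 genes were. They were SLC7A5, MTHFD2, PSAT1 and PSPH of the amino acid branch and STC2 of the ISR branch, with none in the ER branch. SLC7A5 averaged 146 CPM at passage 27 and 171 CPM at passage 31 (adjusted p = 0.0113). MTHFD2 (143 and 163 CPM, adjusted p = 0.0181), PSAT1 (284 and 318 CPM, adjusted p = 0.0242) and STC2 (38.1 and 45.0 CPM, adjusted p = 0.0399) had their lowest mean at passage 29 and their highest at passage 31. PSPH averaged 50.8 CPM at passage 29 and 61.2 CPM at passage 27 (adjusted p = 0.0363). Each ratio of highest to lowest was between 1.12 and 1.21. The count moved with single libraries, as did the share of all genes. It was 1 of 34 (2.94%) without RANKL replicate 2 (6.35% of all genes), OPG replicate 1 (3.1% of all genes), OPG replicate 2 (4.32% of all genes) or denosumab replicate 2 (4.23% of all genes), so the share of the module was then below that of all genes. It was 2 of 34 (5.88%) without vehicle replicate 2, where 4.13% of all genes were called. It was 3 of 34 (8.82%) without RANKL replicate 1, OPG replicate 3, OPG replicate 4, denosumab replicate 3, vehicle replicate 1 or vehicle replicate 4, where 4.04% to 8.51% of all genes were called. Without vehicle replicate 3 it was 8 of 34 (23.5%), where 12.9% of all genes were called.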

How the data were processed

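Polyadenylated RNA of 32 libraries, 4 in each of 8 groups, had been sequenced with a stranded paired-end kit, per the labels' protocols. Per the submitters' processing notes, bcl2fastq 2.20.0, STAR 2.7.9a and featureCounts 1.6.2 were used with GRCh38/hg38. The annotation release and strand setting are not given in the sources used here. In GENCODE 29, 13 of the 35 members share exon bases with another gene, so the limit given for DDIT3 is not particular to it. Among them are EIF2AK3 (14.4%), CEBPB (11.8%) and VLDLR (7.9%), each with a gene on the opposite strand. For VLDLR that gene, VLDLR-AS1, had 65 counts in TCam-2 and 1343 in NTera2, against 1355 and 15401 for VLDLR, the same direction. The deposited values are raw gene counts, which the authors did not normalise. Every one of the count columns was matched to a sample. CPM used TMM-scaled library sizes, and CPM per kb used the length column of the deposited table. Tests were edgeR 4.0.16 quasi-likelihood F tests (filterByExpr, TMM, robust; R 4.3.3, limma 3.58.1) over all genes with Benjamini-Hochberg adjustment at 0.05, in 17 comparisons, and the procedure was tested on simulated data. DESeq2 1.42.0, other size factors, no low-count filter, fits of the compared groups alone, a replicate block and left-out libraries were alternatives.

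The members, lists and tests were chosen with earlier results of these data known. The line comparison names every member, the treatment comparisons the 3 with the smallest p, the passage comparisons the 5 with the smallest p, and each other list the 3 called genes with the largest difference. Replicate numbers mark a passage shared by the 4 treatments of a line, so they pair libraries within a line. Residuals of same-number libraries correlated with a median r of 0.0365 in NTera2 and 0.0233 in TCam-2 (24 pairs each), against -0.0188 and -0.0082 for different numbers (72 pairs each). Between the lines a number is only a name. Replicates of a group differed by more than sampling noise in all 48 pairs (chi-square per degree of freedom from 2.70 to 19.6), and none was merged. Counting error at these depths is small for most members and large for NUPR1, ASNS and NTera2 CBS.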

Additional observations from a re-analysis of the deposited data

Results flagged for a closer look

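In 17 of 280 groups of 4 libraries (6.07%), the highest or lowest CPM of a gene of the module stood apart from the other 3, with a gap to its neighbour that passed Dixon's critical value for 4 samples. Chance flags about 1 group in 20. In TCam-2, CHAC1 was 34.0 in RANKL replicate 2 (RIN 6.1) where the others lay between 19.6 and 21.6, and CBS was 38.9 in the same library (others 32.2 to 33.0). ERN1 was 22.9 in TCam-2 RANKL replicate 3 (others 21.2 to 21.4). In TCam-2 OPG replicate 4, DDIT4 was 48.8 (others 72.8 to 76.5) and ATF6 was 6.90 (others 4.65 to 4.90). PHGDH was 299 in TCam-2 vehicle replicate 1 (others 378 to 391), and ALDH1L2 was 13.1 in TCam-2 vehicle replicate 3 (others 7.97 to 8.41).

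In NTera2, HERPUD1 was 19.98 in RANKL replicate 2 (others 28.5 to 29.7), and CHAC1 was 11.0 in OPG replicate 2 (others 15.5 to 15.99). In NTera2 denosumab replicate 2, PSAT1 was 278 (others 306 to 310.2) and SLC7A1 was 69.7 (others 75.6 to 76.7). In NTera2 vehicle replicate 1, CTH was 11.5 (others 9.39 to 9.64) and EDEM1 was 21.2 (others 17.8 to 18.3). ERN1 was 5.90 in NTera2 vehicle replicate 2 (others 3.99 to 4.13). In NTera2 vehicle replicate 3, TRIB3 was 24.3 (others 27.9 to 28.6) and SYVN1 was 50.8 (others 58.1 to 59.0). STC2 was 47.8 in NTera2 vehicle replicate 4 (others 41.2 to 42.1). The part of RNA quality in these values was not tested.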

How the results depend on the processing

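No called result changed direction under an alternative, and the 6 branch medians of the line comparisons kept their sign. Of the 39 branch medians of the other comparisons, 19 changed sign under at least 1 alternative, none of them over 0.09 in size, and no direction is read from these. Medians over all genes near 0 also changed sign with other size factors (NTera2 OPG 0.004 against -0.002). The line comparison called 31 to 34 members and 12425 to 13021 genes when one vehicle library was left out, and 35 members and 16080 to 16291 genes in treated libraries. Without TCam-2 vehicle replicate 2 the amino acid branch median was 0.79, and without NTera2 vehicle replicate 3 it was 0.82. The median of all genes was -0.13 with DESeq2 and -0.12 with no low-count filter, against -0.01. In the treatment comparisons no member was called under any alternative, but counts over all genes left 0. With no low-count filter they were 176 (NTera2 RANKL), 237 (NTera2 denosumab), 51 (TCam-2 RANKL), 54 (TCam-2 OPG), 28 (TCam-2 denosumab), 1 (NTera2 OPG against RANKL), 3 (TCam-2 OPG against RANKL), 1 (TCam-2 denosumab against RANKL), and 1, 3 and 32 for the interactions of line with RANKL, OPG and denosumab. With DESeq2 they were 16 (NTera2 denosumab), 1 (TCam-2 RANKL), 3 (TCam-2 OPG) and 1 (interaction with RANKL). With the replicate block they were 30 (NTera2 denosumab), 2 (TCam-2 denosumab) and 1 (interaction with denosumab). In the line comparisons that block used numbers that do not pair the lines. There ASNS, in vehicle libraries, was the only member to lose its call. The genes called with the block were 12944 against 12813 in vehicle libraries and 16008 against 15974 in treated libraries. With a library left out the range was 0 to 29 for NTera2 denosumab and 0 to 1 for each TCam-2 treatment. For passage in TCam-2, 750 genes were called with no filter, 140 genes and 4 members without the 2 low-RIN libraries, and 103 to 800 genes and 5 to 16 members with a library left out. For passage in NTera2 the ranges were 564 to 2365 genes and 1 to 8 members. The cause of these changes was not tested. Depth limits NUPR1, ASNS and NTera2 CBS most.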
